A study of Rattus norvegicus with 64 samples.

Results

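Transcripts of 10 genes best known from the liver were measured in rat lung: Alb, Apob, Ttr, Fga, Fgb, Fgg, A1i3, Crp, Hsd17b13 and Apoa1. They were selected on measured values, because earlier results of these libraries had shown liver transcripts in the lungs, and all 10 rows were found among the 30045 gene rows of the count tables. In 8 of them (Alb, Apob, Ttr, Fga, Fgb, A1i3, Crp and Apoa1) the levels went up and down together from one lung to the next. The range for Alb was 52-fold. In libraries with at least 100 Alb counts, ratios to Alb varied close to counting error in Ttr and Fga and more in Apob, Fgb and A1i3. In Crp and Apoa1 the counting error was too large to show a fixed ratio. Fgg, the third chain of fibrinogen, did not move with the 8. It averaged 106 CPM (counts of a gene scaled to a common library size) and varied the least of the 10 from lung to lung. Hsd17b13 followed the 8 at most weakly. None of the 9 transcripts with enough counts to test passed in edgeR for a difference between dust and air at either dose on any day. DESeq2 called Alb, Apob, Ttr and A1i3 on day 7 at 30 mg/m3. Without air rat 65, a fit chosen after the values were seen, it called none of them on day 7. That fit called Alb on day 1, and Alb, Apob and Ttr on day 27. Apoa1 had too few counts for the test. The division into 8, Fgg and Hsd17b13 was made after the values were seen.

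The animals were outbred male rats of the Sprague-Dawley strain. In a whole-body chamber, 6 hours daily over 4 days, they breathed fracking sand dust, the mostly siliceous dust of the sand used to prop open fractured rock, or filtered air. Dust was given at 10 mg/m3 in one study and at 30 mg/m3 in another, each with air rats of its own, and a piece of lung was taken 1, 7 or 27 days afterwards. At 10 mg/m3 there were 5 dust and 5 air rats on day 1, 5 and 5 on day 7, and 4 and 4 on day 27. At 30 mg/m3 each of the 6 groups had 6 rats. The labels name no other treatment, and each library is taken as 1 rat from the number in its title.

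Hepatocytes make most of the proteins of blood plasma. Albumin carries fatty acids and hormones, apolipoproteins B and A-I build lipoprotein particles, and transthyretin carries thyroid hormone and retinol-binding protein. Fibrinogen, the precursor of the fibrin clot, is assembled from alpha, beta and gamma chains, each from a gene of its own in one cluster. The liver transcribes these genes under factors such as HNF4 and C/EBP, and interleukin-6 raises fibrinogen during the acute-phase response.

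The 64 libraries held 3420235 to 12359518 gene counts each, the lowest being dust rat 27 of day 1 at 10 mg/m3. Air rats 51 and 53 of day 1 at 30 mg/m3 stood apart, with 21889 and 22077 genes detected against at most 19731 in any other library. Lung identity was plain in the libraries: Sftpc, a surfactant gene of alveolar type 2 cells, averaged 9771 CPM and was at no less than 6755 CPM, while Alb averaged 50.9 CPM. In RNA from a piece of tissue, more cells of a type and more RNA per cell cannot be told apart. Levels are CPM scaled by TMM factors, are not corrected for gene length, and are therefore compared between libraries and not between genes.

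The start regions of the 3 fibrinogen genes and of Alb are shown because the fibrinogen chains parted in these lungs although they belong to one protein. They are RefSeq windows of the rat build GRCr8, from 250 bases before to 50 after the annotated start, read 5′ to 3′ on the gene's strand. Capitals mark matches on either strand to 3 motifs. The first is TATAAA, the TATA box. The second is CTGGGAA, an interleukin-6 response element. The third is the looser TTNNGNAA, bound by C/EBP factors, where N is any base.
Fgg (chr2:170652833-170653132, plus strand): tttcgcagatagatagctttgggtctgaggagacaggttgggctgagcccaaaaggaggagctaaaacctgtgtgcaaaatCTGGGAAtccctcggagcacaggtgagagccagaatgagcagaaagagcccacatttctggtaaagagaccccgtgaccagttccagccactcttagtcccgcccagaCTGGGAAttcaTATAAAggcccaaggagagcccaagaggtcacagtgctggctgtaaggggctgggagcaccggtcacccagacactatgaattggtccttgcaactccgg
Fga (chr2:170671919-170672218, plus strand): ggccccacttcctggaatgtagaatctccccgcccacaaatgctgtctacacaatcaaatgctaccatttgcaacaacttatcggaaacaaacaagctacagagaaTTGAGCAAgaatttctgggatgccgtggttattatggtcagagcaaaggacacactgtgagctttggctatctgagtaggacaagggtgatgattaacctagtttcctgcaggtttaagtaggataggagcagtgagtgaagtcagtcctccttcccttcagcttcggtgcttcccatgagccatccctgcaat
Fgb (chr2:170700826-170701125, minus strand): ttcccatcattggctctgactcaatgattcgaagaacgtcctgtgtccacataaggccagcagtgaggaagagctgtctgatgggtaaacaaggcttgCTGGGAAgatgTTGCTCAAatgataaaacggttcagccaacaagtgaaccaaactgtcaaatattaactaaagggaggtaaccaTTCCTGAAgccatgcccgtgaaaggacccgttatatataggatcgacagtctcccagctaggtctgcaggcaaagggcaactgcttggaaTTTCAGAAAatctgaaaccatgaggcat
Alb (chr14:17906930-17907229, minus strand): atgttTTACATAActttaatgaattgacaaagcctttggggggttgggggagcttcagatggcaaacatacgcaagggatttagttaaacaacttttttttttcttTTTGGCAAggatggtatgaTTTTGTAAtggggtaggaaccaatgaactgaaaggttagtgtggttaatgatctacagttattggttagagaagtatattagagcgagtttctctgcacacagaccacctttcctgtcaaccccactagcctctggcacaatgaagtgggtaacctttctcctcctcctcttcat

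The Fgg window held 1 TATAAA and 2 copies of CTGGGAA. The Fgb window held 1 CTGGGAA and no TATAAA, and the Fga and Alb windows held neither. The motif TTNNGNAA was found 0 times at Fgg, 1 time at Fga, 4 times at Fgb and 3 times at Alb. Of 33469 rat windows of this length, 14.2% held TATAAA, 11.3% CTGGGAA and 41.3% TTNNGNAA on either strand. In the 4 windows shown, the only matches that overlapped were 2 of TTNNGNAA at Fgb. A match describes letters and is no evidence of binding. RefSeq windows were at hand for 7 of the 10 genes. A1i3 is a synonym of both Mug1 and Mug1l1 in RefSeq, so its counts may be shared with near-identical relatives and are uncertain.

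Alb, the most variable of the abundant members, was detected in all 64 lungs, with 64 to 2805 counts. In the 10 mg/m3 study it ran from 11.3 to 132 CPM with a median of 49.2 CPM (n = 28). In the 30 mg/m3 study it ran from 7.03 to 365 CPM with a median of 21.6 CPM (n = 36). At 30 mg/m3 a few lungs lay far above the rest. The highest was air rat 65 of day 7 with 365 CPM, then dust rat 96 of day 27 with 240 CPM, dust rat 62 of day 1 with 164 CPM and dust rat 91 of day 27 with 152 CPM. These lungs belonged to both dust and air groups.

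The other carriers and lipoprotein genes were lower and moved with Alb. Apob, the large structural protein of low-density lipoprotein, ran from 1.25 to 57.6 CPM over all 64 libraries, and Ttr from 0.220 to 17.8 CPM. Apoa1, the main protein of high-density lipoprotein, was at the edge of detection, with 0 to 22 counts and none in 3 libraries; a count of 0 allows at most 3 counts, which was 0.246 to 0.919 CPM depending on the library. Among clotting and defence proteins, Fga ran from 0 to 13.9 CPM and Fgb from 0.109 to 15.4 CPM. A1i3, a rodent protease inhibitor of the alpha-macroglobulin family, ran from 0.213 to 24.9 CPM, and Crp, C-reactive protein, from 0 to 7.94 CPM. In each of these 8 genes the highest library was air rat 65. Crp was at 0 counts in dust rat 76, which had 8.52 CPM of Alb, and Fga in air rat 54, which had 12.8 CPM.

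**Figure D1:**
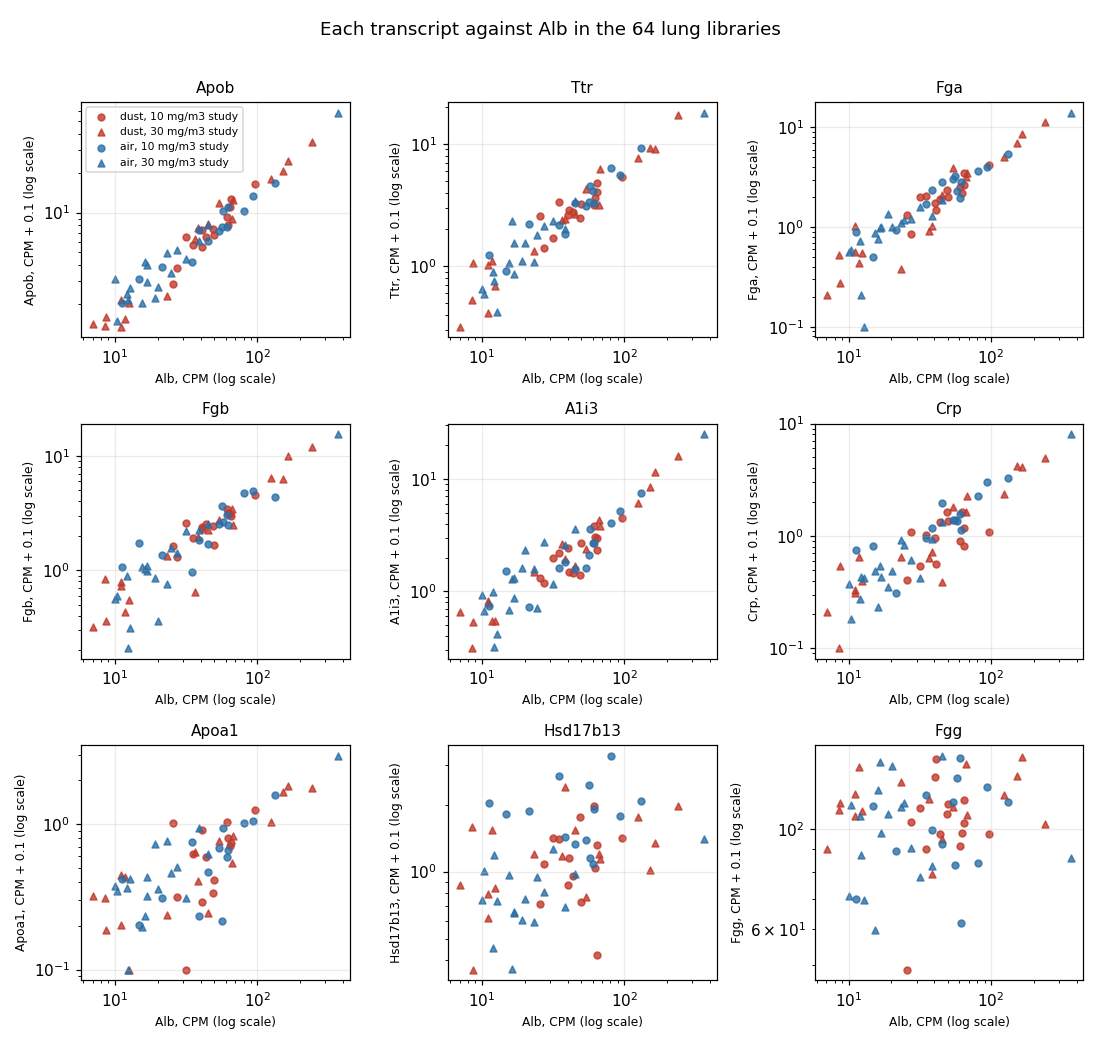
CPM of each of the other 9 transcripts (log axis, with 0.1 added) against CPM of Alb (log axis) in the 64 lung libraries, red for dust and blue for air, circles for the 10 mg/m3 study and triangles for the 30 mg/m3 study. Apob, Ttr, Fga, Fgb, A1i3, Crp and Apoa1 follow Alb along 1 line shared by dust and air, whereas Hsd17b13 scatters and Fgg stays between 48.7 and 145 CPM at any level of Alb.

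The 8 genes were correlated in every pair. Across the 28 libraries of the 10 mg/m3 study, Pearson's r of log2(CPM + 1) over their 28 pairs had a median of 0.788 and ran from 0.389 (Crp with Apoa1, the members of fewest counts) to 0.943 (Alb with Apob). Across the 36 libraries of the 30 mg/m3 study the median was 0.935, from 0.852 to 0.976, the highest again being Alb with Apob. Spearman's rho had medians of 0.751 and 0.831. The relation did not rest on group means: with the group means taken out, the median r was 0.813 at 10 mg/m3 and 0.916 at 30 mg/m3. The relation was also seen without the 2 libraries farthest from the median Alb of their study, though other lungs far from the median stayed in. Without air rats 37 and 21 at 10 mg/m3 the median r was 0.780, and without dust rat 96 and air rat 65 at 30 mg/m3 it was 0.898. The values are descriptions, since the genes were chosen for this pattern, and the points of a pair share library and depth.

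**Figure D2:**
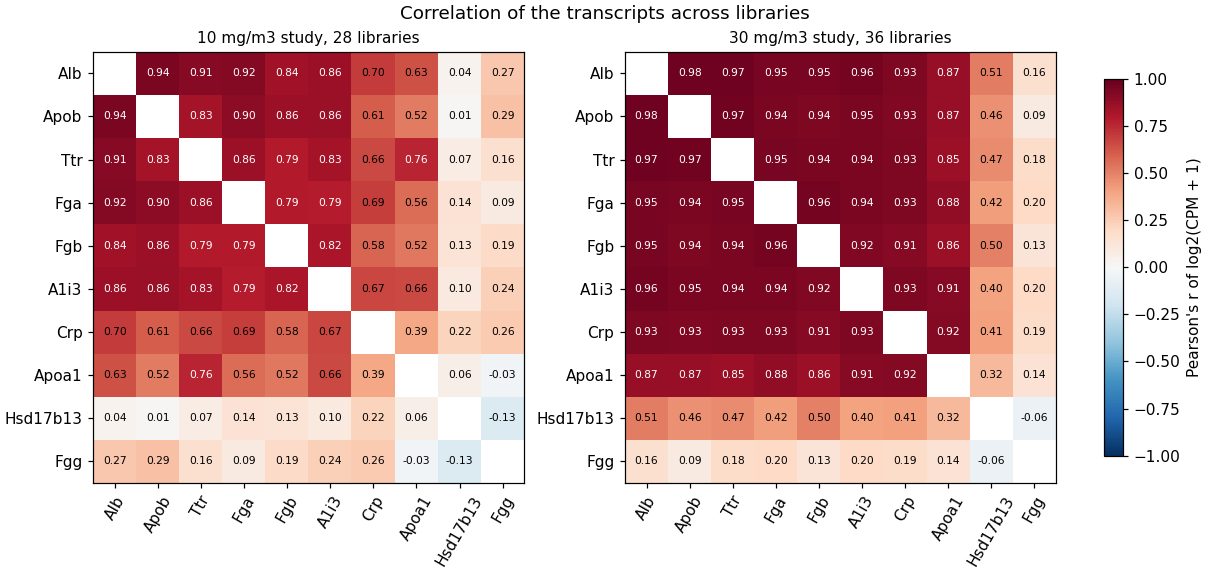
Pearson's r of log2(CPM + 1) for each pair of the 10 transcripts, across the 28 libraries of the 10 mg/m3 study (left) and the 36 of the 30 mg/m3 study (right); red is positive and blue negative. The 8 transcripts form a block with a median of 0.788 on the left and 0.935 on the right, and the rows of Hsd17b13 and Fgg stay paler.

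Ratios to Alb within the 8 genes were taken in the 57 libraries with at least 100 Alb counts. Of the dust lungs of day 7 at 30 mg/m3, only rat 74 had that many. Apob had 15.5 counts per 100 Alb counts over all these libraries, with 9.47 as the lowest and 30 as the highest library. Its coefficient of variation (CV) between libraries was 23.4%, where counting error alone gives 17%. For Ttr, with 6.18 counts per 100 Alb counts, the CV was 27.9% against 25.9% from counting. For Fga, with 4.33 per 100, it was 32.8% against 30.6%, and for Crp, with 2.25 per 100, 39.7% against 42.0%. In Ttr, Fga and Crp the CV of the ratio to Alb was close to that of counting error, and in Apob it was above it, while Alb itself had a CV of 114% over all 64 libraries.

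The remaining 3 had fewer counts or a wider spread. Fgb had 4.71 counts per 100 Alb counts with a CV of 33.4% against 29.4% from counting. A1i3 had 5.37 per 100 with a CV of 36.4% against 27.7%, made up of 4.61 per 100 at 10 mg/m3 and 6.04 per 100 at 30 mg/m3. Apoa1 had 1.03 per 100, with a CV of 60.4% against 61.8% from counting, so its few counts show no more than that. Apob, the best counted, was also pooled over all libraries of each group, including those under 100 Alb counts. In the dust groups of day 1, 7 and 27 at 30 mg/m3 it was at 15.1, 15.8 and 15.9 counts per 100 Alb counts. The air groups had 20.8, 15.5 and 16.

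Fgg did not keep the ratio of its partner chains. In the 57 libraries with at least 100 Alb counts, its counts per 100 Alb counts ran from 23.5 to 1157. Their CV was 77.2% against 7.62% from counting. In CPM it was the most even of the 10, from 48.7 to 145 CPM with a CV of 21% over all 64 libraries. Fgg counts per Fga count were highest, 818, in dust rat 75, where the value rests on 1 Fga count. The lowest was 6.17 in air rat 65 and the median 73.1, over the 63 libraries with a count of Fga. Fgb counts per Fga count had a median of 1.14 over the same libraries. The first ratio thus changed by far more between libraries than the second, whose lowest and highest values were 0.286 and 4.5.

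Across libraries, r of Fgg with the 8 genes had a median of 0.216 at 10 mg/m3 and 0.169 at 30 mg/m3. By the likeness rule used for all members, applied to Fgg alone after its values were seen, the genes nearest to it over both studies were led by Npc2, a cholesterol carrier of lysosomes (rho 0.849 over 28 libraries and 0.768 over 36), C4bpa, a plasma regulator of complement (0.848 and 0.748), and Sftpa1, surfactant protein A (0.862 and 0.747). Sftpc was also among the 10 nearest (0.681 and 0.677). The summed level of 7 alveolar type 2 markers went with Fgg at rho 0.767 at 10 mg/m3 and 0.721 at 30 mg/m3. The summed lung macrophage markers also went with Fgg, at rho 0.816 at 10 mg/m3 and 0.493 at 30 mg/m3. For Alb, the alveolar type 2 sum gave 0.201 and -0.128, and the lung macrophage sum gave 0.261 and -0.051.

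Hsd17b13, an enzyme of the lipid droplets of hepatocytes and no plasma protein, had 2 to 24 counts per library, 0.320 to 3.22 CPM at 10 mg/m3 and 0.263 to 2.31 CPM at 30 mg/m3. Its r with the 8 genes had a median of 0.0863 at 10 mg/m3 and 0.440 at 30 mg/m3. With group means taken out these were 0.0382 and 0.120, so within groups it hardly followed them. The summed level of 5 alveolar type 1 markers had a rho of -0.760 with Hsd17b13 at 10 mg/m3 and -0.126 at 30 mg/m3. With group means taken out, the rho was -0.506 and 0.193. Of the lists summed, this one lay farthest from 0 at 10 mg/m3, and it is given after the values were seen. Counting error is large for this gene, with a CV of 33% from counting beside 51.8% measured over all 64 libraries.

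Other liver genes moved with the 10. In lists of genes chosen with earlier results known, a gene was counted when its deviations from group means followed the mean of the 10 with a rho over 0.5, among genes averaging at least 0.1 CPM. Of 40 other plasma proteins of hepatocytes, 24 did so at 10 mg/m3 and 31 at 30 mg/m3. Of 29 intracellular hepatocyte enzymes and carriers, 15 and 21 did. Over all 19043 genes outside the 10, the counts were 323 at 10 mg/m3, or 1.70%, and 159 at 30 mg/m3, or 0.835%. Of the 77 genes of the 3 hepatocyte lists, 38 passed in both studies.

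The plasma protein genes that were abundant in lung were a mixed set. Tf, transferrin, at 152 CPM on average, followed the 10 with rho 0.611 at 10 mg/m3 and 0.577 at 30 mg/m3. Cp, ceruloplasmin, at 371 CPM, had 0.383 and 0.148. Fetub, fetuin-B, at 84.3 CPM, had -0.0203 and -0.176, and Vtn, vitronectin, at 76.5 CPM, had 0.0837 and 0.00772. Of these 4 abundant genes, Tf alone passed the limit of 0.5.

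Among intracellular enzymes, Cps1, the first enzyme of the urea cycle, averaged 2.27 CPM and had rho 0.904 and 0.825, and Bhmt, which remethylates homocysteine, averaged 2.08 CPM and had 0.756 and 0.912. Cyp2e1, an ethanol-oxidising cytochrome at 24.7 CPM, had 0.392 and 0.314. These enzymes are not secreted. Of 8 hepatocyte transcription factors, none passed at 10 mg/m3 and 2 passed at 30 mg/m3, Hnf4a (rho 0.796) and Creb3l3 (0.726), both named after their values were seen. Nr1i2, Nr1h4 and Nr0b2, among the most abundant, averaged 0.615 to 0.867 CPM and did not pass in either study.

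The genes most like the members were also of liver type. By the lower rho of the 2 studies they were Pzp, an alpha-macroglobulin protease inhibitor (0.918 at 10 mg/m3 and 0.906 at 30 mg/m3), Serpina3c, a serpin (0.907 and 0.878), Gc, the vitamin D-binding protein (0.868 and 0.862), Ahsg, fetuin-A (0.858 and 0.893), and Cps1 (0.895 and 0.847). Serpinc1 (antithrombin), Itih3, Itih2 (heavy chains of inter-alpha-trypsin inhibitor), Apoh (a phospholipid-binding plasma protein) and LOC299282 followed.

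Markers of other cell types were counted in the same way. Of 5 Kupffer cell markers, the resident macrophages of liver, 0 passed at 10 mg/m3 and 1 at 30 mg/m3, Cd5l with rho 0.558. Clec4f, the most specific of them, averaged 0.874 CPM and had rho 0.446 at 10 mg/m3 and 0.212 at 30 mg/m3. Of 4 choroid plexus markers, which share Ttr with liver, 1 passed at 10 mg/m3, Kcnj13 with rho 0.526, and 0 at 30 mg/m3. These 2 genes are named after their values were seen. No gene passed in either study in the lists of intestinal epithelium, kidney tubule, exocrine pancreas, erythroid cells, cardiac muscle, adipose tissue, mesothelium, alveolar type 2 and type 1 cells, lung macrophages, airway, endothelium or mitochondrial ribosomal RNA. The limit counts positive rho only. Of the mitochondrial ribosomal RNAs, Rnr2 had rho -0.507 at 10 mg/m3 and 0.0147 at 30 mg/m3. Rnr1 had -0.418 and 0.0561. Their sum had a rho with Alb of -0.494 at 10 mg/m3 and 0.154 at 30 mg/m3, and its part in the level of Alb was not tested. Mbl2 of the plasma protein list and Otx2 of the choroid plexus list were at 0 counts in all 64 libraries.

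**Figure D3:**
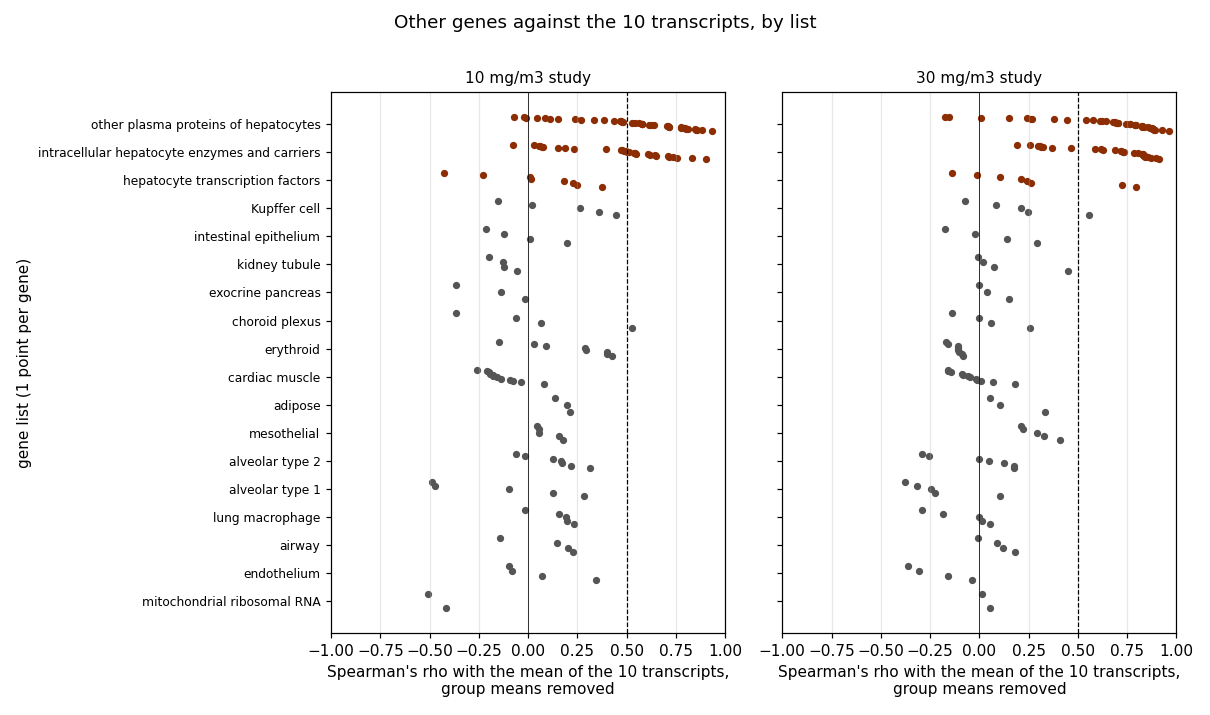
Spearman's rho (horizontal axis) of each gene with the mean log2(CPM + 1) of the 10 transcripts after group means were removed, 1 point per gene, in the 10 mg/m3 study (left) and the 30 mg/m3 study (right), by gene list down the page; brown marks the 3 hepatocyte lists and the dashed line a rho of 0.5. Points past the line are 39 of 77 hepatocyte list genes on the left and 54 of 77 on the right, and 1 gene of the other lists on each side.

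The lungs with most and least Alb show the pattern in single animals. In dust rat 75, the 8 genes made up 0.000985% of the counts (exact 95% binomial interval, counting error only, 0.000791% to 0.00121%), the lowest share, against 0.0510% (0.0494% to 0.0526%) in air rat 65, the highest. Air rat 65 also had the highest summed level of hepatocyte enzymes of all 64 libraries, 144 CPM, and dust rats 96 and 62 came next with 132 and 95.5 CPM. The summed Kupffer cell markers were 10.1 CPM in dust rat 96, 8.94 CPM in dust rat 62 and 8.20 CPM in air rat 65, which were ranks 7, 16 and 26 of 64. In the same order, the erythroid markers ranked 28, 16 and 14 and the cardiac markers 22, 48 and 21. The mesothelial markers ranked 58, 1 and 9 and the alveolar type 2 markers 50, 2 and 35. Dust rat 91, next after these lungs in Alb, ranked 6 in the enzymes with 73.4 CPM. It ranked 43 in Kupffer cell, 60 in erythroid, 35 in cardiac, 20 in mesothelial and 25 in alveolar type 2 markers.

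The comparison of dust with air asks whether inhaled fracking sand dust changed these transcripts, at each dose and day. At 30 mg/m3, the 8 genes had higher medians in dust on day 1 and day 27 and lower medians on day 7. None of the 7 that were tested passed with edgeR on any day, and DESeq2 called 4 of them on day 7, where it called 0.354% of all genes. Alb in dust lungs of day 1 ran from 23.3 to 164 CPM with a median of 67.2 CPM, against 10.1 to 45.1 CPM with a median of 16.5 CPM in air lungs (n = 6 each). The groups overlapped, with 4 of 6 dust lungs above every air lung and the other 2 under air rat 53 alone. The log2 fold change of Alb was 2.0 ± 0.73 (SE; adjusted p = 0.241 by edgeR's quasi-likelihood test over 15551 genes).

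Across the 7 of the 8 that were tested, log2 fold changes on day 1 ran from 1.58 (Apob) to 2.26 (Fga), with a median of 1.96 beside 0.02 over all genes and adjusted p from 0.241 to 0.309. All 7 had an unadjusted p under 0.05, and so did 2334 of the 15551 genes. EdgeR called none of the 15551 genes on that day, that is 0%. DESeq2 without air rat 65, chosen after seeing the data, called 46 of 15674 genes, among them Alb (adjusted p = 0.0449). Without air rats 51 and 53, Alb gave 2.53 by edgeR and 877 genes were called, none of them a member. Hsd17b13 had 1.04 to 1.65 CPM in dust lungs of day 1, median 1.10 CPM, against 0.264 to 0.877 CPM in air lungs, median 0.594 CPM. Its groups did not overlap, which held for 0.336% of genes averaging at least 0.1 CPM, and its log2 fold change was 1.05 ± 0.34 (SE; adjusted p = 0.197). The summed erythroid markers on that day were 2006 to 17455 CPM in dust lungs and 2291 to 7610 CPM in air lungs.

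On day 7 at 30 mg/m3, Alb ran from 7.03 to 12.5 CPM in dust lungs, with a median of 9.86 CPM, against 15.4 to 365 CPM with a median of 22.3 CPM in air lungs (n = 6 each). Every dust lung lay below every air lung, and the other 5 air lungs were at most at 31.8 CPM. The log2 fold change was -3.02 ± 0.77 (SE; adjusted p = 0.162 by edgeR). By DESeq2 the adjusted p was 0.00417 for Alb, 0.00676 for Apob, 0.0201 for Ttr and 0.0202 for A1i3, and it called no other member on that day. Without air rat 65 it called no member on that day, with adjusted p of 1.00 for Alb, and 47 of all genes, 0.3%. Groups did not overlap in 0.635% of genes on that day, and Alb was the only one of the 10 among them. Apob ran from 1.25 to 2.07 CPM in dust lungs, median 1.40 CPM, against 1.93 to 57.6 CPM in air lungs, median 3.65 CPM. Its groups overlapped at their edges, and its log2 fold change was -2.98 ± 0.80 (SE; adjusted p = 0.186).

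The size on day 7 depended on air rat 65. The 7 genes ran from -3.26 (A1i3) to -2.78 (Fgb) on the log2 scale, with a median of -2.86 and adjusted p from 0.162 to 0.401. Without that rat, Alb gave -1.16 (unadjusted p = 0.0568, adjusted p = 1.00 in edgeR's quasi-likelihood test), Apob -1.07 and Ttr -1.41, and the 7 ran from -1.41 to -0.94. Of all 15551 genes, 10 were called on day 7, that is 0.0643%, and 776 had an unadjusted p under 0.05, against 0 and 7 of the 9 members tested.

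Summed markers of other tissue are given beside the day 7 values; edgeR called 2 of 11 cardiac muscle genes tested, both lower in dust, and 0 of 8 erythroid genes. The summed cardiac muscle markers were 149 to 385 CPM in dust lungs and 547 to 1915 CPM in air lungs, without overlap. The summed erythroid markers were 1649 to 2708 CPM in dust lungs and 1865 to 4234 CPM in air lungs, and mitochondrial ribosomal RNA was 0.109% to 0.453% of counts in dust lungs and 0.458% to 0.885% in air lungs. Their part in the difference of the liver transcripts was not tested. Within the 30 mg/m3 study, Alb had a rho of 0.177 with the cardiac sum and 0.170 with the erythroid sum across the 36 libraries. Fgg on that day had 89.9 to 120 CPM in dust lungs and 59.6 to 137 CPM in air lungs.

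On day 27 at 30 mg/m3, Alb ran from 11.8 to 240 CPM in dust lungs, with a median of 49.5 CPM, against 10.4 to 38.6 CPM with a median of 15.7 CPM in air lungs (n = 6 each). Dust rats 96, 91, 89 and 94 lay above every air lung, dust rat 92 lay just under the highest, and dust rat 90 among the lowest. The log2 fold change was 2.17 ± 0.73 (SE; adjusted p = 0.484). The 7 genes ran from 1.83 (A1i3) to 2.44 (Crp), with a median of 2.17 and adjusted p from 0.414 to 0.634. By edgeR, 0% of all genes were called and 1141 had an unadjusted p under 0.05, against 8 of the 9 members. DESeq2 without air rat 65, chosen after seeing the data, called 14 of 15674 genes. Alb, Apob and Ttr were among them (adjusted p = 0.0403 for each by DESeq2). Groups did not overlap in 0.415% of genes and in none of the 10.

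Without dust rat 96, Alb gave 1.60 and A1i3 1.07 on day 27. Hsd17b13 had 0.668 to 2.31 CPM in dust lungs of day 27, median 1.44 CPM, against 0.353 to 1.09 CPM in air lungs, median 0.653 CPM. Its log2 fold change was 0.99 ± 0.32 (SE; adjusted p = 0.426). On day 7 its value was -0.29 (adjusted p = 0.959). Fgg gave 0.18, 0.18 and 0.16 on the log2 scale on day 1, 7 and 27, each ± 0.17 (SE), the smallest values of the 9. Apoa1 had too few counts to be tested; with no filter its log2 fold changes were 1.07, -1.88 and 0.93 on day 1, 7 and 27 (adjusted p = 0.463, 0.931 and 0.886 by edgeR).

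The list genes had like values. On day 1, 26 of 28 other plasma proteins tested lay above 0, with a median log2 fold change of 1.12. On day 7, 2 of 28 lay above 0, with a median of -1.32. On day 27, 26 of 28 lay above 0, with a median of 1.38. For the 14 hepatocyte enzymes tested the medians were 1.07, -1.40 and 1.59. No gene of these lists was called, and the median over all genes was at most 0.02 in size on each day. Most genes of both lists followed the members from lung to lung at this dose. Their shared sign in the same lungs is therefore no observation separate from that of the members. Whether the list medians of day 7 depended on the air lung with most Alb was not tested.

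**Figure D4:**
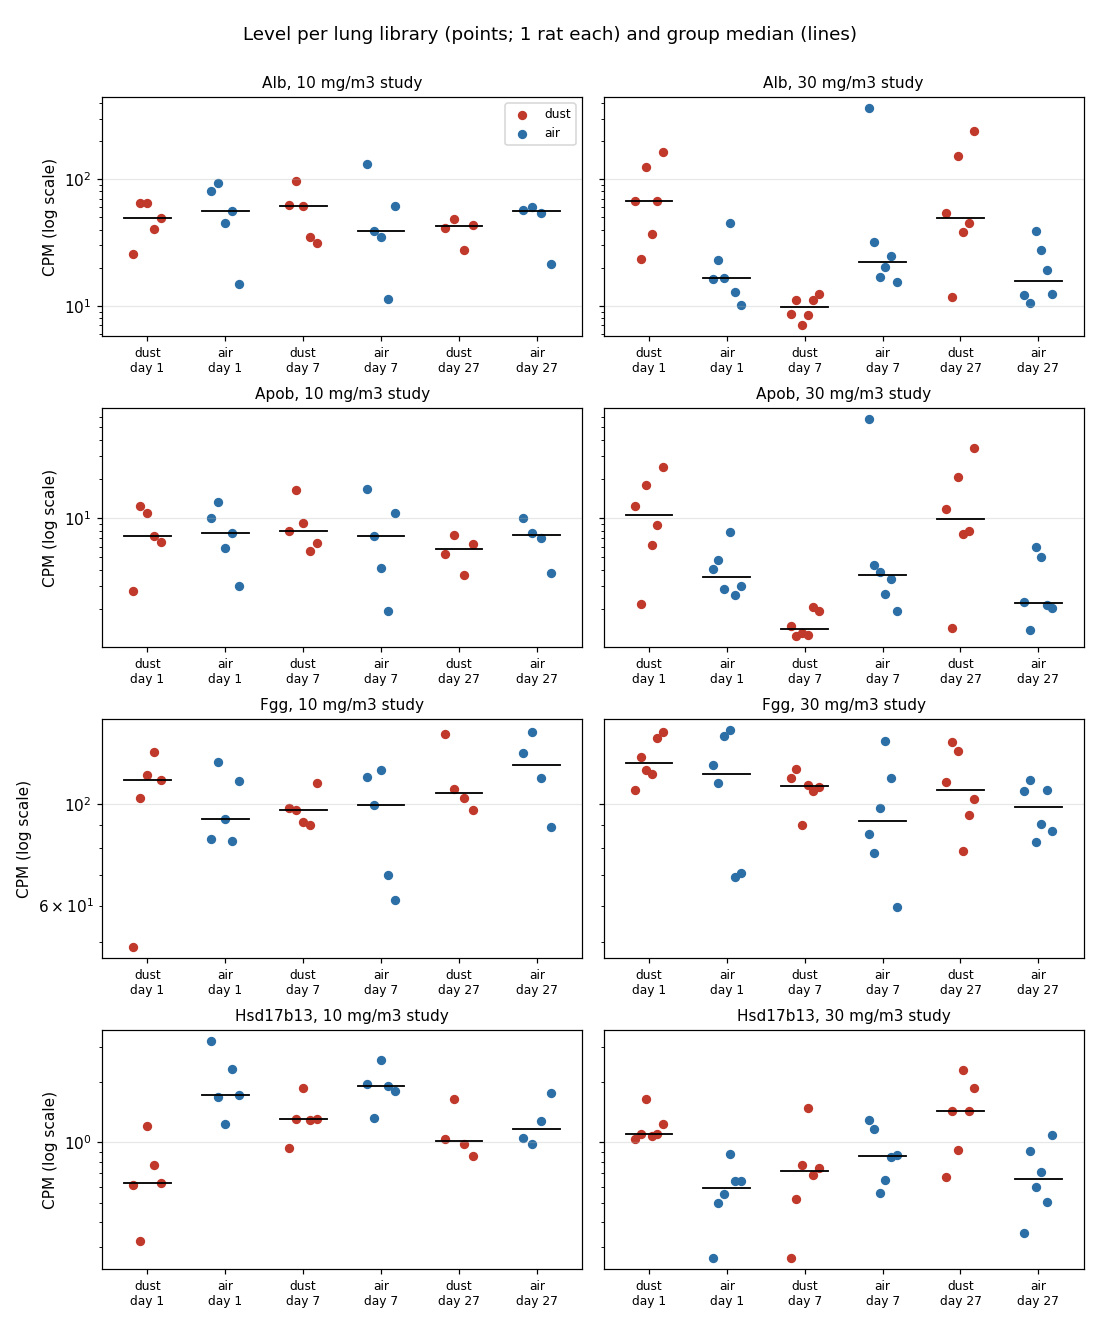
CPM (log axis) of Alb, Apob, Fgg and Hsd17b13 (rows) in each lung library, by group, with dust left of air on each day, for the 10 mg/m3 study (left) and the 30 mg/m3 study (right); lines are group medians. At 30 mg/m3, Alb and Apob have group medians of 67.2 and 10.6 CPM in dust lungs of day 1, 9.86 and 1.40 CPM on day 7 and 49.5 and 9.94 CPM on day 27, while Fgg keeps to 59.6 to 145 CPM.

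Whether the difference between dust and air depended on the day was tested directly. At 30 mg/m3, Alb had an unadjusted p of 3.18e-05 and an adjusted p of 0.193 (edgeR's quasi-likelihood F test on the 3 daily differences), and the 7 genes had adjusted p of 0.193 to 0.197. None of the 15551 genes passed, 0%, with 688 at an unadjusted p under 0.05. DESeq2's likelihood ratio test called 46 genes, 0.296%, among them Alb (adjusted p = 0.00067), Apob, Ttr, Fga, Fgb, A1i3 and Crp. Without air rat 65 the unadjusted p of Alb was 0.00029 and the adjusted p 0.413 by edgeR, and DESeq2 called 12 genes, 0.0766%, of which Alb and Ttr were members.

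At 10 mg/m3 none of the 7 tested of the 8 transcripts passed, and the dust and air groups of all 8 overlapped on each day. On day 1, Alb had 25.7, 64.9, 64.4, 40.6 and 49.8 CPM in the 5 dust lungs, against 81.1, 93.1, 44.9, 56.2 and 14.8 CPM in the 5 air lungs. On day 7, it had 62.7, 96.5, 61, 35.1 and 31.6 CPM in dust lungs, against 132, 38.7, 34.7, 11.3 and 61.8 CPM in air lungs. On day 27, it had 41.1, 48.7, 27.4 and 43.5 CPM in dust lungs, against 57.5, 60.8, 54.2 and 21.6 CPM in air lungs. Dust and air lungs were mixed in the order of Alb on all 3 days.

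The log2 fold changes of Alb at 10 mg/m3 were -0.20 ± 0.49, 0.03 ± 0.49 and -0.29 ± 0.55 (SE) on day 1, 7 and 27, with adjusted p of 0.848, 1.00 and 1.00 by edgeR over 15668 genes. The 7 genes ran from -0.96 (Crp) to 0.08 (Apob) on day 1, from -0.54 (Crp) to 0.53 (Fgb) on day 7, and from -0.70 (A1i3) to -0.04 (Crp) on day 27. Their medians were -0.23, 0.03 and -0.35. Apoa1, without the filter, gave 0.04, 0.03 and -0.28. Fgg gave 0.07, 0.06 and -0.10, each with an SE of 0.20 to 0.22. Of all genes 20 were called on day 1, 0.128%, and 0% on day 7, on day 27 and in the test of day dependence; no member was among them, and 2, 0 and 0 of the 9 had an unadjusted p under 0.05 on day 1, 7 and 27. The corresponding counts over all genes were 2957, 620 and 369, and 1141 for day dependence.

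Hsd17b13 came nearest to the threshold at 10 mg/m3. On day 1 it had 0.612, 0.320, 1.21, 0.770 and 0.629 CPM in dust lungs, against 3.22, 1.68, 1.23, 2.34 and 1.72 CPM in air lungs. Every dust lung lay below every air lung, though the highest dust and the lowest air value nearly met. Non-overlap was seen in 3.1% of genes on day 1, 1.23% on day 7 and 2.09% on day 27, and in no other member. The log2 fold change was -1.45 ± 0.32 (SE; adjusted p = 0.0576, unadjusted p = 8.82e-05). Of 33 alternative fits, 30 did not call it. The 3 that did were edgeR fits that each left out a library. Their adjusted p was 0.0087 without air rat 21 of day 1 and 0.0497 without dust rat 30 of day 1. Without air rat 6 of day 27 it was 0.0332.

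Beside Hsd17b13 on day 1, the summed alveolar type 1 markers were 3295 to 3673 CPM in dust lungs and 2636 to 3506 CPM in air lungs, and their part in the difference was not tested. On day 7, Hsd17b13 gave -0.53 ± 0.30 and on day 27 -0.19 ± 0.34 (SE). On day 1 at 30 mg/m3 its value had the opposite sign, 1.05. The studies had different air rats, and the difference between the doses was not tested.

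**Figure D5:**
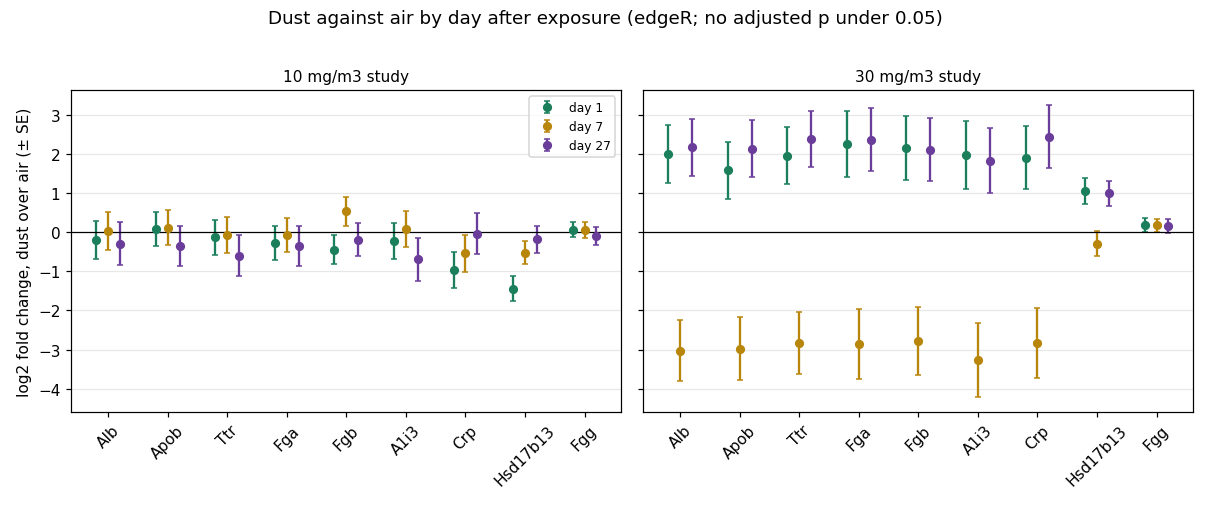
Log2 fold change of dust over air with its SE (vertical axis) for the 9 transcripts tested, on day 1, 7 and 27 after exposure, in the 10 mg/m3 study (left) and the 30 mg/m3 study (right). At 30 mg/m3, 7 transcripts share values of 1.58 to 2.26 on day 1, -3.26 to -2.78 on day 7 and 1.83 to 2.44 on day 27, with Fgg near 0, and no value passed an adjusted p of 0.05 with edgeR.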

How the data were processed

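Total RNA of rat lung, depleted of ribosomal RNA, was sequenced with a kit that keeps strand. The authors deposited raw counts of reads by gene symbol, a table for each dose, not normalised. Per the submitters' processing notes, the genome build was Rnor_6.0 and the tools included HISAT2 2.1.0, HTSeq 0.6.1, SAMtools 1.8, Trimmomatic 0.35 and bcl2fastq 2.19. For counting, the annotation and strand setting are not given in the sources used, which leaves overlapping genes uncertain.

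Tests used edgeR 4.0.16 in R 4.3.3: TMM factors, filterByExpr (minimum count 10, minimum total 15), robust quasi-likelihood F tests, and Benjamini-Hochberg adjustment over all genes at 0.05, with the 6 groups of a study in 1 fit. This was tested on simulated data. The simulation gave every gene the same biological CV and held no extreme lung, so it does not test the fits for the members. The common biological CV was 16.1% at 10 mg/m3 and 16.7% at 30 mg/m3. Correlations used log2(CPM + 1). Alternatives were DESeq2 1.42.0, voom in limma 3.58.1, RLE factors, no filter, only the groups compared, and each library left out.

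The members and the 18 gene lists were chosen with earlier results of these data known. Named besides the members are up to 4 of the most abundant genes of each hepatocyte list (2 genes under this rule are not reported here), genes set beside a result, and the 10 genes of highest likeness. No 2 libraries of a group agreed within counting noise (chi-square per degree of freedom at least 2.07). Only the titles say that each library is 1 rat, so p-values measure the spread between these samples. Intervals cover counting error only.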

Additional observations from a re-analysis of the deposited data

Results flagged for a closer look

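In a group of rats, a library was singled out when its gap to the nearest other rat was too large a part of the group's range (Dixon's test). This was done for 120 groups of values and chance gives about 1 in 20; 16 were singled out, and the values of a library are not independent, since the 8 transcripts move together.

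Air rat 65 of day 7 at 30 mg/m3 was far above the other 5 air rats in 8 transcripts: Alb at 365 CPM (next 31.8 CPM), Apob at 57.6 CPM (next 4.34 CPM), Ttr at 17.8 CPM (next 2.22 CPM) and Fga at 13.9 CPM (next 1.48 CPM). Fgb was at 15.4 CPM (next 2.12 CPM), A1i3 at 24.9 CPM (next 2.21 CPM), Crp at 7.94 CPM (next 0.727 CPM) and Apoa1 at 2.86 CPM (next 0.363 CPM).

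Dust rat 59 of day 1 at 30 mg/m3 was highest for Hsd17b13 at 1.65 CPM (next 1.24 CPM). Dust rat 44 of day 7 at 10 mg/m3 was highest for Fga at 4.10 CPM (next 2.41 CPM). Air rat 53 of day 1 at 30 mg/m3 was highest for Alb at 45.1 CPM (next 23.1 CPM), Fgb at 2.46 CPM (next 0.990 CPM) and A1i3 at 3.51 CPM (next 1.49 CPM). Air rat 33 of day 7 at 10 mg/m3 was highest for Ttr at 9.11 CPM (next 3.17 CPM) and Crp at 3.20 CPM (next 1.06 CPM). Air rat 6 of day 27 at 10 mg/m3 was lowest for Alb at 21.6 CPM (next 54.2 CPM).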

How the results depend on the processing

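Of the counts of members past the threshold, these changed with the processing. With DESeq2, 4 members (Alb, Apob, Ttr and A1i3) passed on day 7 at 30 mg/m3 and 7 depended on the day, against 0 with edgeR, and the cause was not tested. DESeq2 without air rat 65, an alternative chosen after seeing the data, passed 1 member on day 1 (Alb), 0 on day 7 and 3 on day 27 (Alb, Apob and Ttr). In it, 2 members depended on the day (Alb and Ttr). On day 1 it gave an adjusted p for only 2 members, Alb and Fgg, so the others neither passed nor failed. DESeq2 with all libraries gave one on day 1 only for Alb, Apob and Fgg. With each library left out in turn, 0 to 1 members passed on day 1 at 10 mg/m3. Genes called over the whole table also depended on the tool: DESeq2 called 474 on day 1 at 10 mg/m3 and, at 30 mg/m3, 40 on day 1 and 55 on day 7, against 20, 0 and 10 with edgeR and 8, 0 and 7 with voom. Leaving out each library gave 1 to 1147 genes on day 1 at 10 mg/m3, and 0 to 220 on day 1 and 0 to 21 on day 7 at 30 mg/m3.

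Directions turned for small values at 10 mg/m3. Crp on day 27 gave 0.14 with voom and -0.38 to 0.20 with a library left out, Crp on day 7 -0.80 to 0.052, and Hsd17b13 on day 27 -0.42 to 0.018. The median correlation at 30 mg/m3 was 0.898 with a pseudocount of 0.1, 0.831 as Spearman's rho and 0.898 without the 2 farthest libraries, an alternative chosen after seeing the data. With a limit of 0.7 on rho, 21 of the 77 other liver genes passed at 10 mg/m3.

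No paired analysis was possible because each title carries a number of its own. Depth limits Apoa1, Crp and Hsd17b13, whose counts reach down to 0, 0 and 2. With only the groups compared, 5, 3 and 7 members passed the filter on day 1, 7 and 27 at 30 mg/m3.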
